A study of Homo sapiens with 3 samples.

Results

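The 42 mitosis genes described here encode the proteins that drive cells into mitosis, build the spindle, check the attachment of chromosomes, separate them and divide the cell. They were taken as a fixed list of gene symbols, and all 42 were found among the 17185 genes named on the array, through 50 of its 45033 probe sets. The cells were MNNG/HOS, an osteosarcoma line of human origin made by exposing the HOS line to the chemical carcinogen MNNG, and were grown in DMEM/F12 without serum. Floating spheres that had formed were first removed, and the residual adherent cells were cultured further. The day 5 spheres are the floating sarcospheres, abbreviated iOSCs by the submitters, that were collected after 5 days with 4 ng/mL of the growth factor TGF-beta1, a regulator of matrix production and of proliferation. The day 3 culture, called mesophase, received the same dose for 3 days, and whether its adherent cells, its floating cells or both were collected is not stated in the labels. The untreated cells were residual adherent cells kept for 5 days with no added factor.

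Each of the 3 cultures gave 1 array, so there are no replicates, and no test, standard error or p-value was possible. Values are deposited array intensities on a linear scale, the value of a gene is the mean log2 over its probe sets (given as an intensity), and each difference is one array minus another in log2. A gene was counted as higher or lower when 2 arrays differed by at least 2-fold, a rule of size that is no test. For smaller differences, above and below say only on which side of another array a value lay. The spheres and the untreated cells were both cultured for 5 days but differ in treatment and in the fraction of cells collected, and day 3 differs from both in days of culture as well; these cannot be told apart. Probe sets differ in brightness, so a gene is compared only with itself across arrays.

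The medians of the 3 arrays lay between 437 and 455, and Pearson's r of log2 intensities between pairs of arrays was 0.977 to 0.979 across all probe sets. The 26 housekeeping genes had medians of 0.03 in the day 5 spheres and 0.06 at day 3, both against untreated cells, and none differed by 2-fold. Among 11 markers of the osteoblast lineage, RUNX2, SPARC and the osteocalcin gene BGLAP were above the array-wide median gene level of 685 on every array, while SP7, ALPL and IBSP did not exceed 76.4 on any. These levels are no detection call, so they do not show which markers were present or absent. In the 11 genes together the medians against untreated cells were 0.35 in the spheres and 0.60 at day 3. Their summed intensity was 35700.5 in the spheres, 43038.5 at day 3 and 23828 in untreated cells, and that of 6 mesenchymal markers was 52996, 51772 and 36708. The leukocyte marker PTPRC lay at 18.5 in the day 5 spheres, 25.9 at day 3 and 21.4 in untreated cells. Endothelial markers summed to 458 in the day 5 spheres, 1255 at day 3 and 409 in untreated cells over 7 genes. The day 3 sum came mostly from PECAM1, at 944. Leukocyte markers summed to 2771, 1412 and 3658 over 7 genes in the same order of arrays, mostly CD68. Epithelial markers summed to 34395, 45105 and 50603 over 7 genes, carried by KRT8 and KRT18, and muscle markers to 4123, 5689 and 2684 over 4 genes, mostly ACTC1. Adipocyte markers summed to 8521, 940 and 2330.4 over 4 genes, nearly all of it FABP4, a fatty acid carrier gene. Their part in the values below was not tested.

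Most of these genes belong to one transcriptional programme of the late cell cycle. In resting cells the DREAM complex, an assembly of E2F4, a pocket protein and the MuvB core, holds them silent. In cycling cells MuvB joins B-MYB (MYBL2) and later FOXM1 and turns them on in G2. MuvB binds the cell cycle homology region (CHR), a short promoter element, and the factor NF-Y binds the CCAAT boxes that often lie a few turns of the helix upstream.

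Those elements are visible in the promoters of the list, a feature that was not used to choose it. Promoter windows from RefSeq (build GRCh38.p14), each with 250 bases before and 50 after an annotated start, matched 35 of the 42 genes with 45 windows. FOXM1, AURKA, BUB3, TTK, BIRC5, TPX2 and UBE2C were not analysed here. The letters TTTGAA, the commonest CHR core, were searched on both strands and found in 28 of the 45 windows (62.2%), against 15.2% of 35116 windows of all genes. The variant TTCGAA, whose opposite strand reads the same, was found in 3 windows (6.67%) against 1.45%. CCAAT on either strand was found in 34 windows (75.6%) against 34.6%. In 25 windows (55.6%) a CHR core and CCAAT occurred together, against 6.38% of all windows. The motifs can share bases, as in MKI67, where TTTGAA and the reverse of CCAAT overlap. Some windows belong to alternative starts of 1 gene, and by gene 25 of 35 had TTTGAA, or 71.4% against 18.2%.

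The position was also uneven. Of the 45 windows, 16 had TTTGAA in the 50 bases before the start (35.6%, against 2.56% of all windows), and 25 had CCAAT between 100 and 51 bases before it (55.6%, against 12.9%). A match is a description of letters and does not show that a factor binds there.

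**Figure D1:**
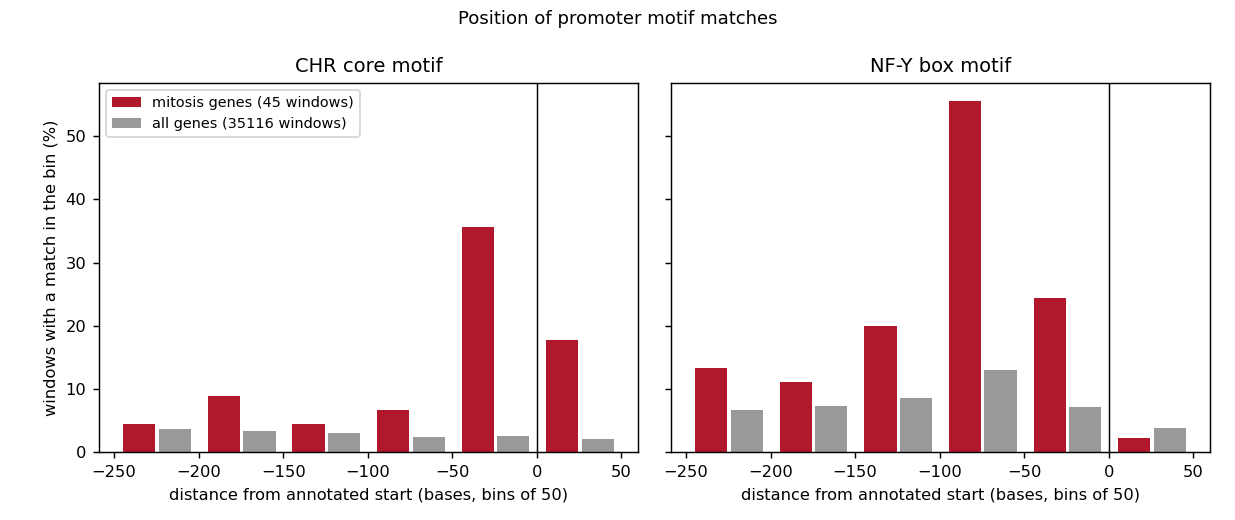
Percentage of promoter windows with a match to the CHR core TTTGAA (left) or to CCAAT, the NF-Y box (right), in bins of 50 bases relative to the annotated start, for 45 windows of the mitosis genes and 35116 windows of all genes. In the mitosis genes the CHR core peaks in the last bin before the start, at 35.6%, and CCAAT in the bin from 100 to 51 bases before it, at 55.6%.

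The promoters of 6 genes are shown because their genes behaved differently on the arrays. MKI67, PLK1 and CCNB2 have TTTGAA at the same distance, with its first letter 29 bases before the start, and INCENP and ESPL1 have it 10 and 31 bases before the start. MKI67 has a further TTTGAA 47 bases before the start. The PTTG1 window has no TTTGAA. Sequences run 5' to 3' on the strand of the gene, and capitals mark TTTGAA and CCAAT on either strand, so that a reversed CCAAT reads ATTGG.
MKI67 (chr10:128126374-128126673, minus strand): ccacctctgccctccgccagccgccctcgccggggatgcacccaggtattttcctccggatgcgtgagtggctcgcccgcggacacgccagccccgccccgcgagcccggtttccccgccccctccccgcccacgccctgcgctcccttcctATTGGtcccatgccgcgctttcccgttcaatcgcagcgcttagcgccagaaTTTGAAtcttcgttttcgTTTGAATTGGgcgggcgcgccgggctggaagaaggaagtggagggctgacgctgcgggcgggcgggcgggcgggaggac
PLK1 (chr16:23678639-23678938, plus strand): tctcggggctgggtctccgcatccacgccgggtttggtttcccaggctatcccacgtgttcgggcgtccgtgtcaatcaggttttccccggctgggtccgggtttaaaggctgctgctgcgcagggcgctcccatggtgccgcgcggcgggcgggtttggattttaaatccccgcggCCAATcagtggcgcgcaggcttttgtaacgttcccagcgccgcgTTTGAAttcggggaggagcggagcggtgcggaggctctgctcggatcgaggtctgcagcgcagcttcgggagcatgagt
CCNB2 (chr15:59104896-59105195, plus strand): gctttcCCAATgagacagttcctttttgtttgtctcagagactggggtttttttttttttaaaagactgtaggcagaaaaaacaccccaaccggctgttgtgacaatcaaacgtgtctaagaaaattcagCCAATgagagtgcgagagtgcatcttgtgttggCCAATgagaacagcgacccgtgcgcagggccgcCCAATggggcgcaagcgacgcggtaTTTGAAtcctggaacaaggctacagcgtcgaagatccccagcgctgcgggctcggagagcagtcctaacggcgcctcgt
INCENP (chr11:62123761-62124060, plus strand): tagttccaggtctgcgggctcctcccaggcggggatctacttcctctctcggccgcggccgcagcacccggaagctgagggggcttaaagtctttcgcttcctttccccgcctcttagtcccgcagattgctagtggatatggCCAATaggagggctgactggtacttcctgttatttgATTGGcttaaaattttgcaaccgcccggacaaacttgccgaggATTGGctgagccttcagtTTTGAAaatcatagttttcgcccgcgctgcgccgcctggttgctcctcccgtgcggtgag
ESPL1 (chr12:53268049-53268348, plus strand): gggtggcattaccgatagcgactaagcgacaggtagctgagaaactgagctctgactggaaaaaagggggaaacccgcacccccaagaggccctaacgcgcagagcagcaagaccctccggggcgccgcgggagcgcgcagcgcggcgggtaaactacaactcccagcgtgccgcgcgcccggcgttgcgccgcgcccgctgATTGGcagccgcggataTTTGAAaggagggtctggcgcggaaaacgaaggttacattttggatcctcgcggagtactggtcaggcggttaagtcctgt
PTTG1 (chr5:160421605-160421904, plus strand): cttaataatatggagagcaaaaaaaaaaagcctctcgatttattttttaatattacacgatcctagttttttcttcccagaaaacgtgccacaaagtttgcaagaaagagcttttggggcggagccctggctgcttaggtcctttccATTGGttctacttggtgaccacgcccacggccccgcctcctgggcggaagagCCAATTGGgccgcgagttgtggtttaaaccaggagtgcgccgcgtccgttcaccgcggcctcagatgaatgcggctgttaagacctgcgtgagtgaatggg
Against untreated cells the log2 differences at day 3 were -0.74 for MKI67, -0.61 for PLK1 and -0.14 for CCNB2. The genes shown were picked because their values differed, so these unequal amounts follow from the choice and say nothing about the motif. The 25 genes with TTTGAA had a median of -0.40 at day 3 and of -0.09 in the day 5 spheres. The 10 genes without it, among them BUB1 and CDC25B with the variant TTCGAA, had medians of -0.25 at day 3 and -0.04 in the spheres. These are descriptions of sets of unequal size, with no test.

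The first question was how the 42 genes in the spheres compared with untreated cells. As a list they were close to the untreated level, and only the transcription factor gene FOXM1 was at least 2-fold lower, at 2.84-fold. The separase gene ESPL1 and the proliferation marker MKI67 came next, 1.79-fold and 1.62-fold below untreated cells. CDK1, NDC80 and PTTG1 were the highest, each at 1.33-fold of the untreated value. The median log2 difference was -0.06, against 0.01 for all 17185 genes and -0.01 for the 4936 bright genes, whose highest value reached the upper quartile of all gene values (an intensity of 3186). Of the 42 genes, 25 (59.5%) lay below 0, against a background of 49.4% of all genes and 51.4% of bright genes. The 1 gene at least 2-fold lower stands beside a background of 5.00% of all genes, or 1.97% of bright ones, and 0 at least 2-fold higher beside 4.90% and 2.07%. These shares are near the background or below it. FOXM1 itself was not a bright gene, but its highest value, 3165 in untreated cells, lay just under the limit of 3186. Of the 37 bright genes in the list 0 were 2-fold lower or higher. In bulk RNA, fewer dividing cells and less of a transcript per dividing cell cannot be told apart.

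The day 3 culture differed from untreated cells by a small amount in most of the list. The median was -0.32, against -0.01 for all genes and -0.04 for bright genes. Of the 42 genes, 37 (88.1%) were below 0, against 50.5% of all genes and 55.7% of bright genes. The count past 2-fold was again 1, the passenger complex gene INCENP, beside a background of 5.26% of all genes and 1.15% of bright genes, and 0 were 2-fold higher, beside 5.77% and 2.57%. At 1.5-fold 8 genes were lower, beside 13.7% of all genes and 5.37% of bright genes, and 0 were higher, beside 15.3% and 6.06%. The 8 were INCENP, NEK2, MKI67, ECT2, BUB1, SPC25, PLK1 and KIF4A. INCENP was not a bright gene, and of the 37 bright genes in the list 0 were 2-fold lower and 5 were 1.5-fold lower. Only CCNB1, CDK1, CDC25B, CDC25C and PTTG1 were at or above the untreated value, the largest difference among them being 0.11.

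The spheres were therefore above day 3 in most of the list, a comparison that shares its arrays with the other 2 and is no independent result. The median was 0.24, against -0.04 for all genes and 0.00 for bright genes, and 33 of 42 genes were above 0, beside 47.0% of all genes and 50.4% of bright genes. Relative to day 3, the spheres had INCENP and NEK2 at least 2-fold higher (background 5.78% of all genes and 1.42% of bright genes) and FOXM1 at least 2-fold lower (background 4.72% and 2.51%). None of these was a bright gene, FOXM1 by a narrow margin, and of the 37 bright genes in the list 0 were past 2-fold. For 29 of the 42 genes (69.0%) day 3 was the lowest of the 3 arrays, against 36.1% of bright genes. The spheres were the lowest for 9 (21.4%, against 35.4%) and untreated cells for 4 (9.52%, against 28.5%). Differences between all pairs of arrays stayed under 1.5-fold for 29 genes (69.0%), against 53.2% of all genes and 75.9% of bright genes.

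**Figure D2:**
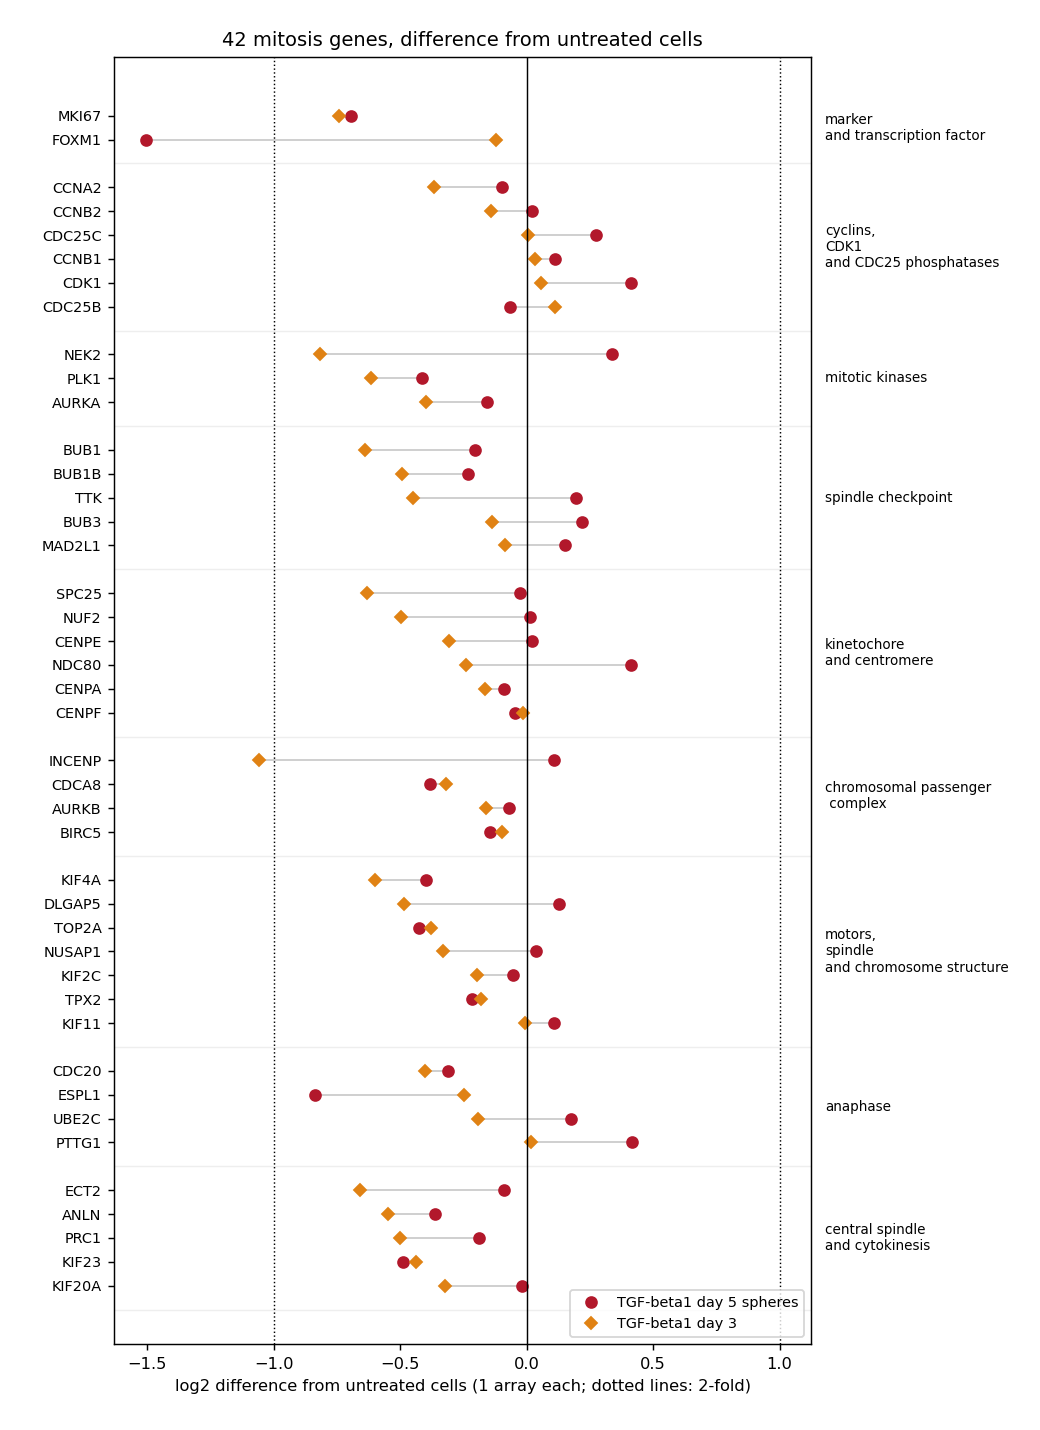
Log2 difference from untreated cells for each of the 42 mitosis genes, grouped by role, with day 5 spheres as circles and the day 3 culture as diamonds (1 array each). FOXM1 stands alone beyond the 2-fold line in the spheres at -1.51, INCENP at day 3 at -1.06, and 37 of the 42 diamonds lie left of 0.

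**Figure D3:**
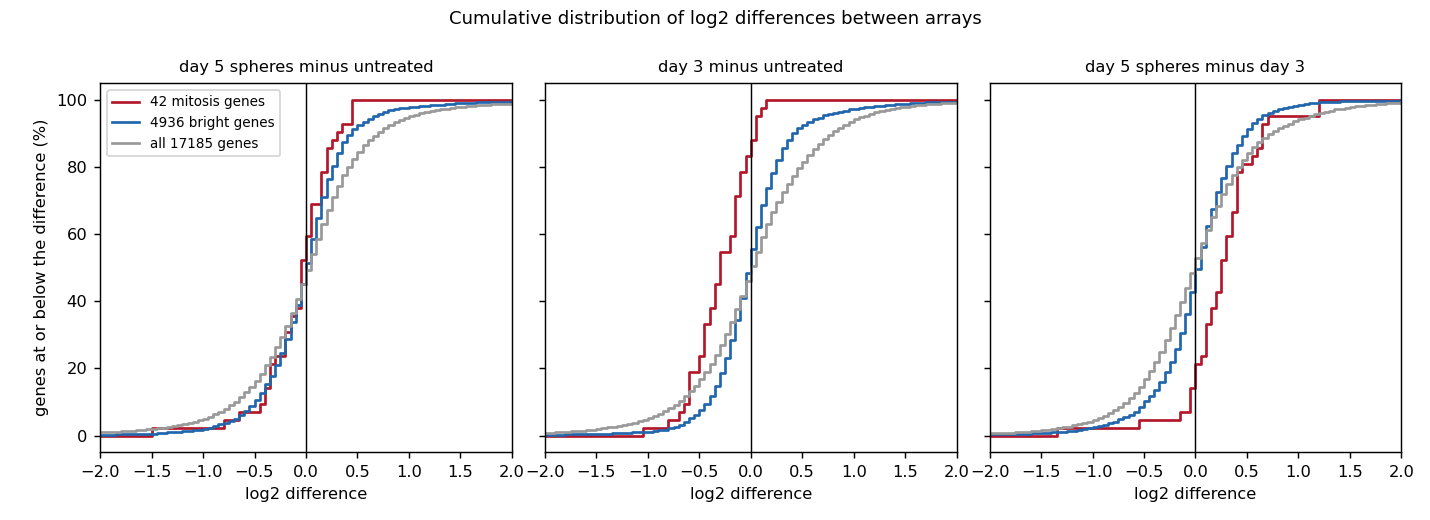
Percentage of genes at or below each log2 difference for the 3 comparisons, with 1 line each for the 42 mitosis genes, the 4936 bright genes and all 17185 genes. In the spheres against untreated cells the line of the mitosis genes rises more steeply than that of all genes, with 85.7% against 67.3% at or below 0.2, and lies nearer that of bright genes, at 76.3%. Its median lies left of theirs at day 3 (-0.32) and right of theirs in the spheres against day 3 (0.24).

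FOXM1 encodes a forkhead transcription factor that activates G2 and mitosis genes, many of those in this list among them. Its intensity was 1115 in the day 5 spheres, 2909.8 at day 3 and 3165 in untreated cells, so that the spheres alone were low. Both of its probe sets showed this. The first read 919 in the spheres, 2352 at day 3 and 2672 in untreated cells, and the second 1353, 3599 and 3748. The log2 differences of the 2 probe sets against untreated cells were -1.54 and -1.47 in the spheres. Among 9285 genes that reached the level of 685 on at least 1 array, 150 had a lower difference than FOXM1 in that comparison. No other gene of the list showed a difference of that size in the spheres.

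MKI67 encodes Ki-67, a coat protein of mitotic chromosomes used in pathology as a marker of cycling cells. Its intensity was 874 in the day 5 spheres, 845 at day 3 and 1414 in untreated cells, so both treated arrays were below it by a similar amount. It thus differed from FOXM1, which was near the untreated value at day 3, with a log2 difference of -0.12.

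**Figure D4:**
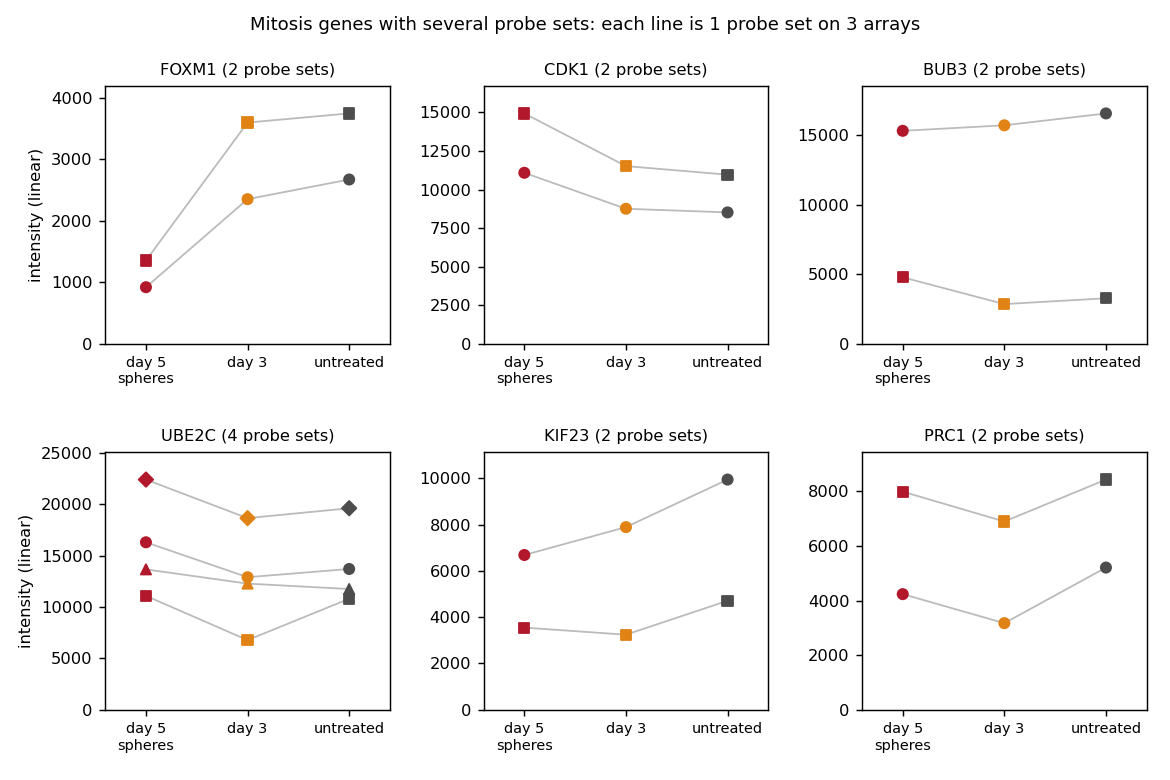
Intensity on the 3 arrays (linear axis from 0) for the 6 mitosis genes with several probe sets; each grey line joins the values of 1 probe set. Both FOXM1 probe sets are low in the spheres alone, both CDK1 probe sets are highest there, and the 2 BUB3 probe sets differ in direction.

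The cyclins, CDK1 and the CDC25 phosphatases form the switch for entry into mitosis. Cyclins A2 and B bind and activate CDK1, and CDC25 phosphatases remove its inhibitory phosphates. This group lay nearest to untreated cells at day 3, with a median of 0.02 and 2 of 6 genes below 0, and had a median of 0.07 in the spheres. CDK1 read 12869 in the day 5 spheres, 10040.5 at day 3 and 9663 in untreated cells, and both probe sets were highest in the spheres, by 0.38 and 0.45 above untreated cells in log2. The 2 sets stand for transcript variants of 1 gene and may share sequence. CCNB1, a B-type cyclin, varied little, at 10572 in the spheres, 10007 at day 3 and 9777 in untreated cells. Its relative CCNB2 read 7085, 6343 and 6989 in the same order of arrays. CCNA2, the cyclin of S phase and G2, read 5356, 4449 and 5731 and differed from untreated cells the most of the 3 cyclins, by -0.37 in log2 at day 3. CDC25C stood at 2538 in the spheres, 2103 at day 3 and 2097 in untreated cells. CDC25B was the single gene of the list with its highest value at day 3, 5381, against 4975 in untreated cells, and it read 4752 in the spheres.

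PLK1, AURKA and NEK2 are kinases of the centrosome and spindle. All 3 were below untreated cells at day 3, with a median of -0.61, and none by 2-fold. PLK1, which acts from mitotic entry to cytokinesis, read 5472 in the day 5 spheres, 4761 at day 3 and 7285 in untreated cells. AURKA, which matures centrosomes, read 7546, 6392 and 8417 in the same order. NEK2 separates the centrosomes before mitosis, and its pattern was different. It read 1139 in the spheres, 512 at day 3 and 902 in untreated cells, so day 3 was the lowest array and the spheres were the highest. The fold was 1.76 between untreated cells and day 3, and 2.23 between the spheres and day 3. These values rest on 1 probe set at a modest intensity, below the level of 685 on the day 3 array.

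The spindle checkpoint genes encode proteins that hold back anaphase until every chromosome is attached. At day 3 all 5 were below untreated cells, with a median of -0.45, while in the spheres BUB1 and BUB1B were below, TTK and MAD2L1 above, and the probe sets of BUB3 disagreed. The checkpoint kinase gene BUB1 read 4385 in the day 5 spheres, 3241 at day 3 and 5054 in untreated cells. BUB1B, which encodes the APC/C inhibitor BUBR1, read 3936, 3281 and 4623 in the same order. TTK, the gene of the kinase MPS1 that starts checkpoint signalling, read 3598, 2301 and 3144. For TTK the spheres were the highest array, which was not the case for BUB1 and BUB1B. MAD2L1, the gene of the checkpoint protein MAD2, stayed between 4798 and 5655 on the 3 arrays. BUB3, a partner of BUB1 and BUBR1, had 2 probe sets. The brighter read 15316 in the spheres, 15714 at day 3 and 16569 in untreated cells, the other 4774, 2848 and 3265. The log2 differences of the spheres from untreated cells were -0.11 and 0.55, so no direction can be given for BUB3 in the spheres, while both were below 0 at day 3.

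NDC80, NUF2 and SPC25 encode subunits of the NDC80 complex, the main microtubule receptor of the kinetochore. All 3 were lowest at day 3. NDC80 read 5473 in the day 5 spheres, 3479 at day 3 and 4109 in untreated cells. NUF2 read 8507, 5975 and 8422, and SPC25 3616, 2381 and 3687, in the same order. NUF2 and SPC25 thus had nearly equal values in spheres and untreated cells, while NDC80 was above untreated cells in the spheres by 0.41. The centromeric histone gene CENPA varied between 5694 and 6375, and the kinetochore protein gene CENPF between 7388 and 7622. CENPE, which encodes a kinesin that moves chromosomes to the spindle equator, read 5219.5 in the spheres, 4165 at day 3 and 5149 in untreated cells. Over the 6 kinetochore and centromere genes the median was -0.01 in the spheres and -0.27 at day 3.

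The chromosomal passenger complex joins the kinase Aurora B (AURKB) to INCENP, survivin (BIRC5) and borealin (CDCA8), and corrects faulty attachments before it moves to the central spindle. INCENP, the scaffold, read 402 in the day 5 spheres, 179 at day 3 and 373 in untreated cells. Day 3 was 2.08-fold lower than untreated cells. INCENP was the only gene of the 42 that did not reach the level of 685 on any array, and with 64 added to each intensity its difference was -0.85 in log2, short of 2-fold. AURKB read 13285.5 in the spheres, 12475 at day 3 and 13940.2 in untreated cells. BIRC5 read 12623, 13069 and 13966 in the same order. The partners AURKB and BIRC5 therefore differed little. The third partner, CDCA8, at 7768, 8119.9 and 10122, differed from untreated cells by -0.38 in the spheres and -0.32 at day 3.

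The kinesins and other spindle proteins were all below untreated cells at day 3, with a median of -0.33 over 7 genes, TOP2A included. KIF4A, a kinesin that condenses chromosomes and sizes the central spindle, read 2739.6 in the day 5 spheres, 2381 at day 3 and 3610.2 in untreated cells. TOP2A, the topoisomerase that untangles chromosomes, read 7437, 7698 and 9997 in that order, so both treated arrays were below untreated cells by about the same amount. DLGAP5, which encodes a protein that stabilises kinetochore fibres, read 3642, 2379.7 and 3333. NUSAP1, a gene of spindle microtubule bundling, read 10393, 8049 and 10123. For DLGAP5 and NUSAP1 day 3 alone was below untreated cells. TPX2, an activator of Aurora A, was at 4491 in the spheres, 4608 at day 3 and 5224 in untreated cells. KIF11, the motor that pushes the spindle poles apart, and KIF2C, a microtubule depolymerase, varied little, with log2 differences from untreated cells of 0.11 and -0.05 in the spheres and of -0.01 and -0.19 at day 3.

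Anaphase starts when CDC20 activates the APC/C, the ubiquitin ligase that works with the conjugating enzyme UBE2C. It destroys securin (PTTG1), which frees separase (ESPL1) to cut cohesin. Securin and separase differed in opposite directions in the spheres. ESPL1 read 1877 in the day 5 spheres, 2829.9 at day 3 and 3356 in untreated cells, a difference in the spheres of -0.84, the lowest of the list after FOXM1. PTTG1 read 17257 in the spheres, 13099 at day 3 and 12939 in untreated cells. Its log2 difference of 0.42 was the highest of the list in the spheres. PTTG1 has near-identical copies in the genome, so its 1 probe set may also measure those. CDC20 read 12650.2, 11870.1 and 15675 in the same order of arrays, with both treated arrays below untreated cells. UBE2C had 4 probe sets, and all of them were above untreated cells in the spheres, by 0.04 to 0.25. At day 3 they ranged from -0.67 to 0.06, so they differed in direction.

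The genes of the central spindle and cytokinesis were the only role, apart from the pair of FOXM1 and MKI67, in which every gene was below untreated cells on both treated arrays, with medians of -0.19 in the spheres and -0.50 at day 3 over 5 genes. ECT2, which activates RhoA to form the contractile ring, read 5097 in the day 5 spheres, 3433 at day 3 and 5419 in untreated cells. ANLN, the gene of the ring scaffold anillin, read 5392, 4748 and 6938 in that order. PRC1, which bundles central spindle microtubules, read 5818, 4678 and 6627, and both of its probe sets were lowest at day 3. KIF23, a motor of the centralspindlin complex, read 4871, 5059 and 6843. Its log2 differences were -0.49 in the spheres and -0.44 at day 3, and each of its 2 probe sets was below untreated cells on both arrays. In the spheres against day 3 the 2 probe sets differed in direction, at -0.24 and 0.13. KIF20A, a kinesin that brings PLK1 to the central spindle, read 8361, 6775 and 8479, so that the spheres were close to untreated cells.

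Genes around the list were read from further lists, described by counts and medians. The lists share some genes, such as MYBL2 and NCAPH, so their counts are not separate results. Of 57 measured other mitosis genes, 47 (82.5%) were below 0 at day 3, with a median of -0.23. In the spheres 36 (63.2%) were, with a median of -0.15. The background below 0 was 50.5% of all genes and 55.7% of bright genes at day 3, and 49.4% and 51.4% in the spheres. In each of these comparisons 3 of the 57 were at least 2-fold lower and 0 higher. The share lower is near that of all genes, 5.26% at day 3 and 5.00% in the spheres. Among bright genes the share lower was 1.15% at day 3 and 1.97% in the spheres. In the spheres against day 3 their median was 0.17, with 17 below 0, so that they lay on the same sides as the 42 genes in all 3 medians. TROAP, which encodes a spindle-associated protein, read 2257 in the day 5 spheres, 3902 at day 3 and 5156 in untreated cells. GTSE1, a gene of microtubule regulation in G2 and mitosis, read 3324, 2732 and 6481. PIF1, a DNA helicase gene, read 1749 in the spheres against 3849.7 at day 3, a difference of -1.14. Of 35 DNA replication genes, 33 (94.3%) were below 0 at day 3 and 27 (77.1%) in the spheres, with medians of -0.29 and -0.25. The background below 0 is that given above for the other mitosis genes. RRM2, a subunit gene of the ribonucleotide reductase that makes deoxynucleotides, read 2297 in the spheres, 1866 at day 3 and 3252 in untreated cells. Of the replication genes 2 were at least 2-fold lower at day 3 and 1 in the spheres. The background is the same, 5.26% and 5.00% of all genes and 1.15% and 1.97% of bright genes. The difference between lists was not tested.

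Among 21 regulators of the DREAM, MuvB and E2F families, 16 (76.2%) were below 0 at day 3, with a median of -0.35. In the spheres 14 (66.7%) were, with a median of -0.21. The background below 0 was 50.5% of all genes and 55.7% of bright genes at day 3, and 49.4% and 51.4% in the spheres. E2F1, an activator of the G1 to S transition, read 2176 in the day 5 spheres, 2217 at day 3 and 3268 in untreated cells. MYBL2, the partner of MuvB before FOXM1, read 6787, 7399 and 8359.9, a much smaller difference in the spheres than that of FOXM1, at -0.30. RB1, the retinoblastoma gene that restrains E2F, stayed between 3343 and 3741. E2F8, a repressor of E2F targets, read 196 in the spheres, 70.4 at day 3 and 347 in untreated cells, low values whose folds are uncertain. Among 13 CDK inhibitors and D-type cyclins the medians were 0.07 in the spheres and -0.24 at day 3. CDKN1A, which encodes the CDK inhibitor p21, read 5014 in the spheres, 4391 at day 3 and 2035 in untreated cells, at least 2-fold higher on both treated arrays. The share of all genes at least 2-fold higher was 4.90% in the spheres and 5.77% at day 3. CCNG2, an unconventional cyclin gene linked to cell cycle arrest, read 1499, 792 and 454. CDKN1B, the p27 gene, was dim, at 189, 71.4 and 155. Of the lists in this paragraph, E2F5, E2F7, RBL2, LIN37 and CDKN2A were above untreated cells on both treated arrays without reaching 2-fold on either. E2F7, an atypical E2F gene, and RBL2, a pocket protein gene, were above by 0.47 and 0.79 in the spheres and by 0.32 and 0.44 at day 3. E2F5 was above by 0.23 in the spheres and 0.20 at day 3, and LIN37 by 0.40 and 0.03. CDKN2A was above by 0.20 and 0.46 but was dim, at most 42.5 on any array.

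**Figure D5:**
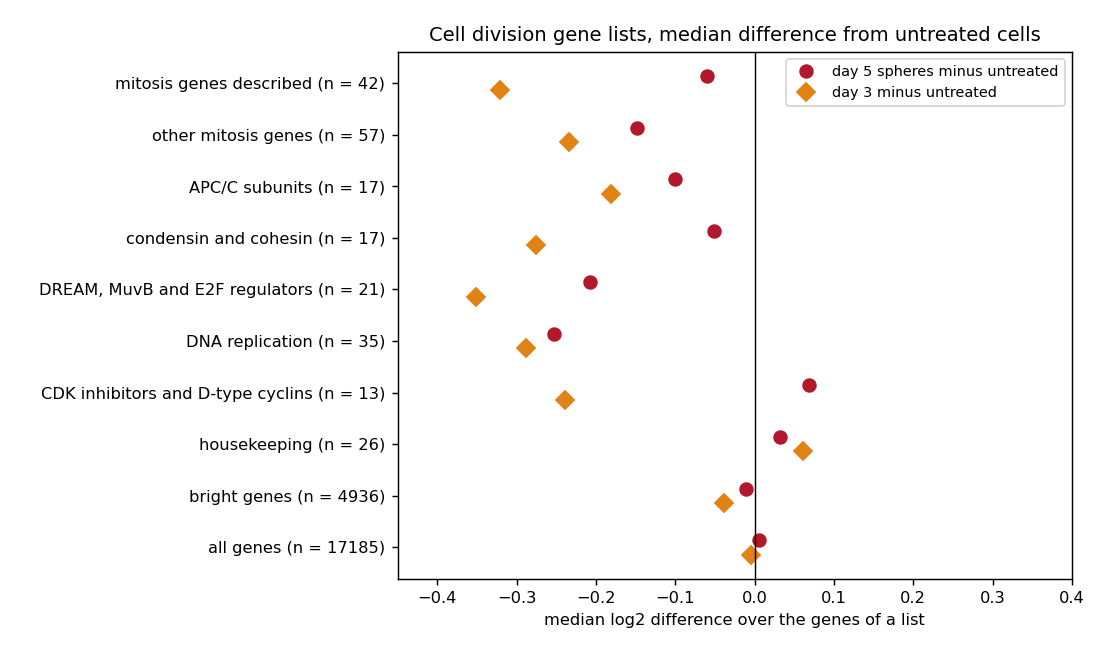
Median log2 difference from untreated cells over the genes of each list, with day 5 spheres as circles and the day 3 culture as diamonds; n is the number of genes, which are not replicates. The mitosis genes lie at -0.06 in the spheres and -0.32 at day 3, DNA replication genes at -0.25 and -0.29, and housekeeping genes at 0.03 and 0.06. The list of CDK inhibitors and D-type cyclins also holds CCNG1, CCNG2 and CDKN3.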

How the data were processed

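Each of 3 cultures supplied total RNA for 1 Cy3 array, per the labels' protocols. The deposited values are intensities for 45033 probe sets, which the authors obtained with RMA according to the submitters' processing notes, on a linear scale from 2.37 to 51530. RMA subtracts background and makes the distributions of the arrays alike, which hides a shift shared by most genes. Neither its version nor the scanner, annotation build or step back to a linear scale is stated in the labels, and no detection calls were used, so the share of background in dim values is unknown. Depth does not apply to arrays, and their number limits the precision.

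Log2 was taken with no offset. The platform's gene table, updated through gene identifiers, named 18188 probe sets, RefSeq accessions (GRCh38.p14) named 678, and 26167 stayed unnamed. Probe sets of 1 gene were averaged in log2, and no filter was applied to the members, of which 41 passed the level of 685 and 37 the upper quartile. All 42 could be named. From the other lists the text could name up to 2 genes past 2-fold per direction and comparison, plus CDKN1A, CDKN1B, RB1, MYBL2, E2F1 and RRM2. The markers RUNX2, SPARC, BGLAP, SP7, ALPL, IBSP, PTPRC, PECAM1, CD68, KRT8, KRT18, ACTC1 and FABP4 were added after their values were seen. So were E2F5, E2F7, RBL2, LIN37, CDKN2A, CCNG1 and CDKN3. Members and lists were chosen with earlier results of these data known. The alternatives were other probe set summaries, scalings, offsets, names, filters and fold rules. The code was tested on simulated data (Python 3.11.15, pandas 2.3.3, numpy 2.4.6).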

Additional observations from a re-analysis of the deposited data

Results flagged for a closer look

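In the list 14 genes (33.3%) lay on opposite sides of the untreated value on the 2 treated arrays, against 33.3% of all genes and 35.8% of bright genes, so the count is near the background. Each side is 1 array and both share the untreated array, so the difference was not tested. Of these, 13 (31.0% of the list, against 17.1% of all genes and 20.0% of bright genes) were above untreated cells in the spheres and below at day 3. CDC25B was the reverse (2.38%, against 16.1% and 15.8%). The log2 difference of the day 5 spheres from day 3 was largest for INCENP (1.17) and NEK2 (1.15), the 2 genes past 2-fold. It was 0.65 for NDC80, 0.64 for TTK, 0.61 for DLGAP5 and 0.51 for NUF2. For the genes closer to 0 it was 0.37 for NUSAP1, 0.37 for UBE2C, 0.35 for BUB3, 0.33 for CENPE, 0.24 for MAD2L1, 0.16 for CCNB2, 0.11 for KIF11 and -0.18 for CDC25B. The 4 UBE2C probe sets at day 3 and the 2 BUB3 probe sets in the spheres did not share a direction.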

How the results depend on the processing

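No paired analysis was possible because each group has 1 array. Over 8 alternatives (brightest or median probe set, median centring, quantile normalization, 64 added before log2, platform names only, and members past the level of 685 or past the upper quartile) the median of the 42 genes ranged from -0.07 to -0.03 in the spheres against untreated cells, from -0.32 to -0.26 at day 3 against untreated cells, and from 0.21 to 0.24 in the spheres against day 3. The number of genes below 0 ranged from 23 to 26, from 33 to 37 and from 8 to 10, where the lower counts include settings with fewer genes. Counts past 2-fold are small and depend on the rule. In the spheres against untreated cells 1 gene was 2-fold lower, against 3 at 1.5-fold, 0 at 3-fold and 0 among members past the upper quartile. That gene, FOXM1, missed the upper quartile by a narrow margin. At day 3 the count of 1 became 8 at 1.5-fold and 0 at 3-fold, with 64 added, and among members past either level. In the spheres against day 3 the 2 genes that were higher became 6 at 1.5-fold, 1 with 64 added or past the level of 685, and 0 at 3-fold or past the upper quartile. The 1 gene lower became 2 at 1.5-fold and 0 at 3-fold and past the upper quartile. These follow from the changed rule or the smaller number of genes, and the offset shrinks differences of dim genes by construction: INCENP became -0.85 at day 3 and 0.94 in the spheres against day 3. The brightest probe set alone put BUB3 at -0.11 in the spheres against untreated cells and -0.04 against day 3.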

Other observations

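The APC/C and the condensin and cohesin complexes, which act on the same steps of mitosis as the genes above, gave the following values. The 17 APC/C genes, FZR1, FBXO5 and UBE2S included, had medians of -0.10 in the day 5 spheres and -0.18 at day 3 against untreated cells, and 0 of them differed by 2-fold. Of 17 condensin and cohesin genes, 2 were at least 2-fold lower in the spheres, NCAPG2 and NCAPH, and 1 at day 3, NCAPH. Both encode condensin subunits and were dim, NCAPH at 218 in the spheres, 172 at day 3 and 464 in untreated cells. The background at least 2-fold lower was 5.00% of all genes in the spheres and 5.26% at day 3, and 1.97% and 1.15% of bright genes. NCAPH was also counted among the other mitosis genes above. PDS5B, a cohesin regulator gene, read 1815 in the spheres and 870.4 at day 3. GINS1 and GINS4, subunits of the replicative helicase, were at least 2-fold lower at day 3 than in untreated cells, with 326 against 789 for GINS1 and 3273 against 6995 for GINS4. CLSPN, the gene of the replication checkpoint adaptor claspin, was the single replication gene at least 2-fold lower in the spheres, at 505 against 1172 in untreated cells.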
